A study of Mus musculus with 8 samples.

Results

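The genes described here are 35 genes of the unfolded protein response and of protein folding in the endoplasmic reticulum (ER), out of 54532 genes in the deposited table. They were chosen by symbol for their known roles, with earlier results of these data known, and fall into 8 lumenal chaperones and their partners, 7 lectin chaperones and disulfide isomerases, 8 genes of ER-associated degradation, 5 stress sensors and transcription factors, and 7 subunits of the channel and its partner complex that bring proteins into the ER. All 35 were found in the table, and 34 reached the minimum level for testing, an FPKM (fragments per kilobase of gene, scaled for the size of the library) of at least 1 in at least 2 libraries. The cells were mouse macrophages grown from bone marrow. They received PBS, a buffer, or spermine, a polyamine with several positive charges that cells also make, and were sampled at 0 h or 3 h of IFN-β, a type I interferon. Each of the 4 combinations, from PBS 0 h to spermine 3 h, has 2 libraries. For mouse strain, age, doses and the length of spermine treatment, the sources used here give no value. No group was held for 3 h without IFN-β, so the change from 0 h to 3 h includes any effect of time. The library titles carry BM1 or BM2 in each of the 4 groups, and the labels do not explain these marks. They may stand for a shared source, and the main fit does not treat libraries of the same mark as pairs. Nothing in the labels says whether the 2 libraries of a group come from different mice or cultures. The p-values therefore measure the spread between libraries, which may be technical.

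Proteins bound for the surface, the lysosome or secretion are threaded into the ER through the Sec61 channel and folded there by chaperones and disulfide isomerases. When unfolded proteins build up, 3 membrane sensors respond. IRE1 (gene Ern1) splices the Xbp1 message so that it encodes an active transcription factor, ATF6 is cut to release another factor, and PERK (gene Eif2ak3) slows translation and favours ATF4. Their target genes enlarge the folding machinery and the degradation route for proteins that fail to fold. In macrophages the same sensors are known to feed into cytokine and interferon production.

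The libraries held between 15723437 and 17744844 reads each, rebuilt from the deposited values. All 8 macrophage markers (among them Lyz2, Cd68, Csf1r and Adgre1) were present in every group, with a summed level of 11204 to 13807 FPKM. Lyz2 made up most of this sum (7799 to 9901 FPKM), and single markers did move. Mertk stood at 15.2 and 13.5 FPKM at PBS 0 h and at 6.46 and 5.62 at spermine 0 h. Fcgr1 stood at 53.7 and 50.9 FPKM at PBS 0 h and at 638 and 611 at PBS 3 h. The neutrophil markers summed to 5.92 to 9.95 FPKM with Ly6g at 0 in every library. B and plasma cells, whose secretory program uses many of the genes described here, were checked with 8 markers. Among these markers is Derl3, which is also a gene of the list described here. The 8 markers summed to 2.73 to 2.76 FPKM at PBS 0 h, 3.20 to 4.57 at PBS 3 h, 4.75 to 5.69 at spermine 0 h and 3.06 to 3.73 at spermine 3 h. Only Ighm reached 1 FPKM, and the part of these cells in the results was not tested. None of the T and NK cell markers (Cd3e, Cd3g and Ncr1 at 0), erythroid markers or stroma markers (Lum at 0) reached 1 FPKM. Of 5 dendritic cell markers 1, Xcr1, did, and they summed to 0.336 to 0.380 FPKM at PBS 0 h, 3.22 to 4.50 at PBS 3 h, 1.19 to 1.29 at spermine 0 h and 5.68 to 6.54 at spermine 3 h, higher with both IFN-β and spermine; their part in the results was not tested. In bulk RNA, fewer cells of a type and less RNA per cell cannot be told apart. The deposited scale holds the median gene near no change, and changes below are relative to it. Rescaling to TPM (values that have the same sum in each library) shifted the median gene by -0.46 log2 units for IFN-β in PBS, -0.33 for IFN-β with spermine, -0.34 for spermine at 0 h and -0.20 for spermine at 3 h. Quantile normalization (the same distribution of values in every library) was the other scaling tried.

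Promoter windows from 250 bases before to 50 bases after the RefSeq start site (build GRCm38.p6) were given for 29 of the 35 genes. None was given for Derl1, Ssr2, Hyou1, Manf, Atf6 and Sec61a1, so the promoters of these genes were not searched. The windows were searched on both strands for the ER stress element ERSE, known as the site bound by ATF6 and XBP1 together with the CCAAT-binding factor NF-Y. Its letters, CCAAT and CCACG with 9 free bases between them, were found for 9 of the 29 genes (Hspa5, Hsp90b1, Calr, Canx, Pdia6, Creld2, Dnajc3, Syvn1 and Derl3), against 0.137% of 27025 genes with a window. The related ERSE-II, ATTGG and CCACG with 1 free base between them, was found for Herpud1 and, after the start site, for Dnajb11, against 0.0444% of genes. The genes were chosen for their known roles in this response, so the contrast with all genes describes the list and tests nothing. Both elements contain the shorter CCAAT and CCACG. The stretches below are printed because they carry these elements in the chaperone, degradation and folding enzyme genes whose levels follow, and they are written 5′ to 3′ on the strand of the gene. Capitals mark the fixed letters of the elements, as CCAAT and CCACG or, where the match lies on the opposite strand, as CGTGG and ATTGG. In Herpud1 the first capitals mark a match on the opposite strand to the CARE letters TGATGNAAN, a site known for ATF4 and its partners, and the second the ERSE-II.
Hspa5, chr2:34772020-34772048, plus strand: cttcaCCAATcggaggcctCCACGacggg
Hsp90b1 (far), chr10:86705628-86705666, minus strand: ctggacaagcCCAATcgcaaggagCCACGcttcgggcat
Hsp90b1 (near), chr10:86705523-86705561, minus strand: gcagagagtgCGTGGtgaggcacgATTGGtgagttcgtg
Calr, chr8:84847065-84847103, minus strand: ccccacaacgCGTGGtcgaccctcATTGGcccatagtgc
Canx, chr11:50325790-50325828, minus strand: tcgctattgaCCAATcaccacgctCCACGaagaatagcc
Pdia6, chr12:17266481-17266519, plus strand: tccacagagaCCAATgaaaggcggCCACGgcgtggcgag
Creld2, chr15:88819510-88819548, plus strand: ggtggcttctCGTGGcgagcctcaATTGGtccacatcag
Dnajc3, chr14:118937817-118937855, plus strand: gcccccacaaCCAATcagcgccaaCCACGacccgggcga
Syvn1, chr19:6046522-6046560, plus strand: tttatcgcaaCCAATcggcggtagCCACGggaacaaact
Derl3, chr10:75893232-75893270, plus strand: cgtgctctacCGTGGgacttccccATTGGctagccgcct
Herpud1, chr8:94386306-94386397, plus strand: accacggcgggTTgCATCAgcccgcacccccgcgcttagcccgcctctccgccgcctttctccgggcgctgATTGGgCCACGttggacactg

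The ERSE matches began between 212 and 44 bases before the start site, and Hsp90b1 held a pair of them. The gene model in the deposited table begins upstream of the RefSeq start used for Hspa5, so that its match lies inside the deposited gene. For Dnajb9 and Derl2 the whole window lies inside the deposited gene, so the bases before that gene model were not searched. The UPRE letters TGACGTGG, the cyclic AMP element TGACGTCA and the interferon element core, GAAA repeated after 2 free bases, were found for 0 of the 29 genes, against 0.714%, 2.03% and 3.99% of all genes, which says only that these letters are not in these windows. CARE letters were found for Herpud1 alone, against 4.50% of all genes. CCAAT alone was found for 23 and CCACG alone for 22 of the 29 genes, against 41.1% and 35.5% of all genes.

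**Figure D1:**
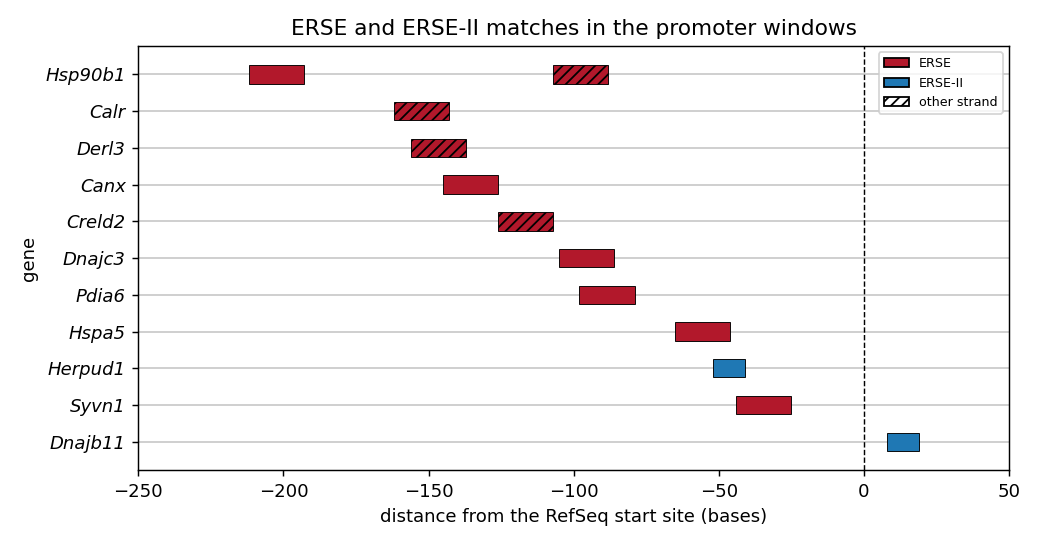
Matches to ERSE (red) and ERSE-II (blue) by gene, as distance in bases from the RefSeq start site (dashed line), with hatching for matches on the opposite strand. The matches of 10 genes lie before the start site and the ERSE-II match of Dnajb11 lies after it.

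In cells with PBS at 0 h the highest levels per length belonged to the disulfide isomerase P4hb (144 ± 0.374 FPKM, SD, n = 2), the lectin chaperone Calr (138 ± 0.815), the isomerase Pdia3 (111 ± 3.97) and the HSP70 chaperone Hspa5 (78.3 ± 0.717). Sensor and degradation messages lay below these, with Edem1 at 49.0 ± 0.0106 and Xbp1 at 43.9 ± 1.28 FPKM the highest. Among the lower ones were Ern1 at 11.4 ± 0.00638, Herpud1 at 5.81 ± 0.229 and Eif2ak3 at 5.40 ± 0.367 FPKM. Some chaperones stood in the same range, such as Manf at 8.13 ± 0.133 FPKM. Derl3, a degradation gene known from secretory cells, had 4 to 21 reads per library (0.0996 to 0.711 FPKM) and was not tested. By spermine 3 h Hspa5 stood first at 301 ± 0.313 FPKM. Hspa5 took 7.47% of the reads of the 35 genes at PBS 0 h, 17.1% at PBS 3 h, 12.9% at spermine 0 h and 19.6% at spermine 3 h. The 35 genes together took 0.569% ± 0.00766 of all reads at PBS 0 h, 0.510% ± 0.0125 at PBS 3 h, 0.655% ± 0.0218 at spermine 0 h and 0.549% ± 0.000144 at spermine 3 h. Both shares are independent of the scale of the table. The joint share was highest at spermine 0 h in both libraries and did not overlap with the other groups, while the share of Hspa5 was higher in every 3 h library than in any 0 h library.

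**Figure D2:**
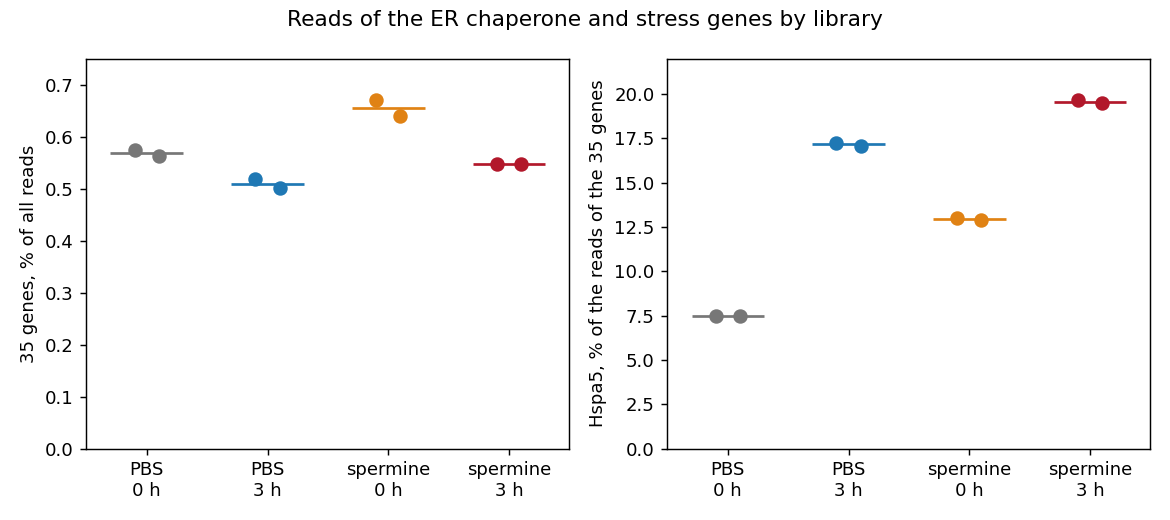
Left, reads of the 35 genes as a percentage of all reads, and right, reads of Hspa5 as a percentage of the reads of the 35 genes, by group; points are libraries and lines are group means. On the left the spermine 0 h libraries stand highest (mean 0.655%), and on the right the means run from 7.47% at PBS 0 h to 19.6% at spermine 3 h.

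The first comparison set spermine against PBS before IFN-β. Most of the chaperones and folding enzymes stood higher in spermine than in PBS at 0 h, led by the co-chaperone Dnajb9, Hspa5, Manf and Hsp90b1, and so did the factor Xbp1. Of the 34 genes tested, 21 rose and 1 fell at an adjusted p under 0.05 (limma, Benjamini-Hochberg over all 11421 genes tested), where 22.0% of all genes rose and 19.2% fell (41.2% together). The median log2 change of the 34 was 0.33, against 0.01 for all genes. Log2 changes here and below are of FPKM + 1, which understates the changes of genes of low level such as Herpud1 and Eif2ak3. By role, 7 of 8 lumenal chaperones, 6 of 7 lectin chaperones and isomerases, 4 of 7 tested degradation genes, 2 of 5 sensors and factors, and 2 of 7 channel subunits rose. After TPM rescaling 7 of the 34 rose and 5 fell (10.4% and 41.5% of all genes), and after quantile normalization 9 rose and 3 fell (17.8% and 21.0%). The members' median stayed above that of all genes by 0.32 on the deposited scale, 0.30 after TPM rescaling and 0.16 after quantile normalization. Genes of high level also had higher medians with spermine at 0 h, 0.12 over all genes at 10 to 30 FPKM, 0.20 at 30 to 100 and 0.27 at 100 to 300, and 30 of the 35 genes lie in these ranges. The part of level in the counts was not tested.

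**Figure D3:**
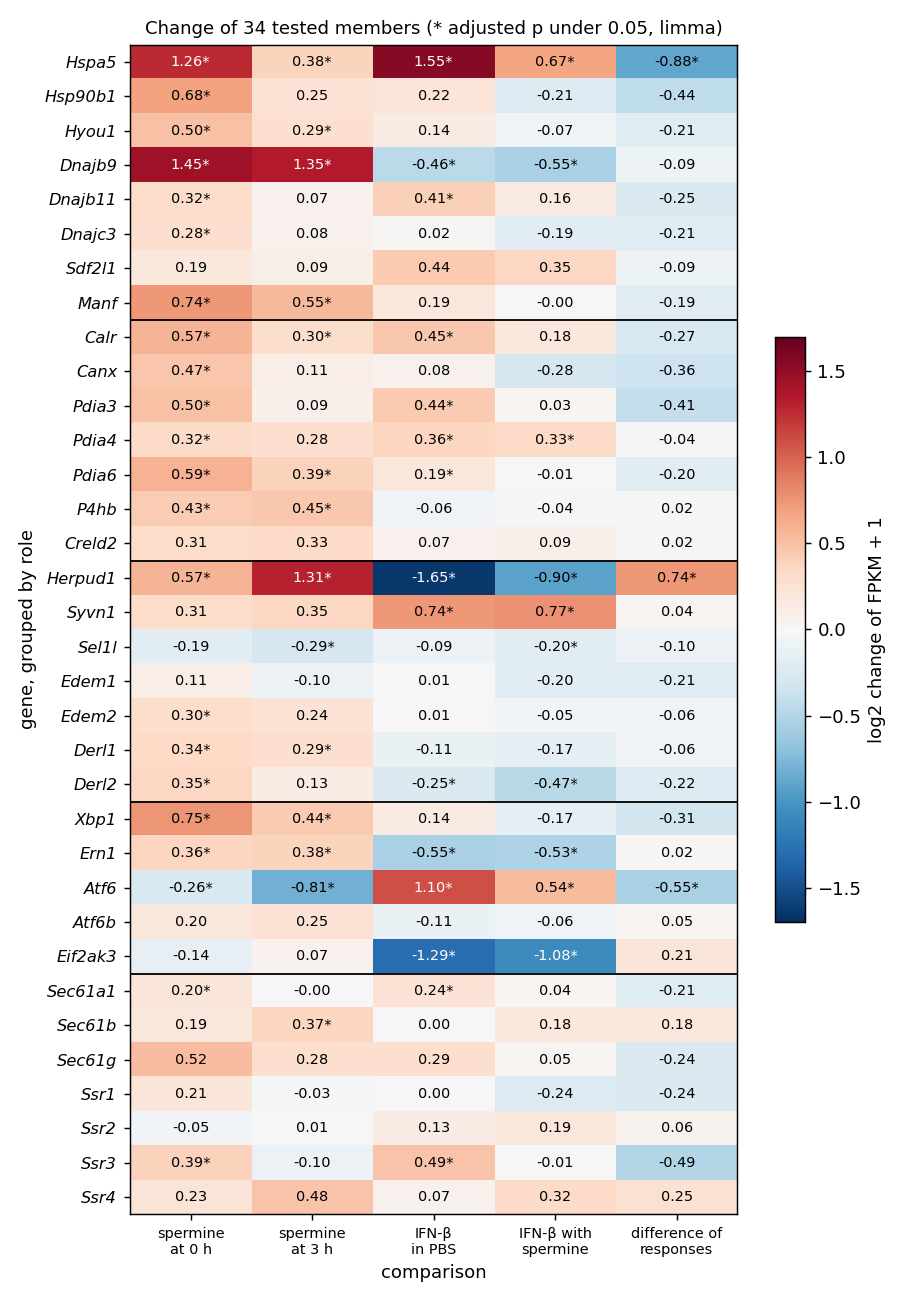
Log2 change of FPKM + 1 for the 34 tested genes (rows, grouped by role in the order lumenal chaperones, lectin chaperones and isomerases, degradation, sensors and factors, channel) in 5 comparisons (columns), with an asterisk where the adjusted p was under 0.05. The column of spermine at 0 h holds 21 rises and 1 fall, and the column of the difference of responses holds 3 calls.

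Among the lumenal chaperones, Dnajb9 (chr12:44205559-44210326, GRCm38), a partner of Hspa5 that also helps deliver misfolded proteins for degradation, stood at 12.0 and 11.0 FPKM in the PBS 0 h libraries and at 34.4 and 31.7 in the spermine 0 h libraries. The groups lay far apart, and Dnajb9 had the largest rise of the 34 genes (log2 change 1.45 ± 0.10 SE, adjusted p = 7.21e-05). Its window, which lay inside the deposited gene, held no ERSE. Hspa5 (chr2:34771970-34777547), the main ER chaperone and the protein that holds the sensors inactive, stood at 78.8 and 77.8 FPKM against 196 and 183 with spermine. Its rise of 1.26 ± 0.07 (adjusted p = 3.10e-05) lay between 0.93 and 1.31 over the 16 alternative settings, all past the threshold. Hsp90b1 (chr10:86690209-86705509), the HSP90 of the ER, whose clients include Toll-like receptors, stood at 50.7 and 46.8 FPKM against 86.0 and 72.4. It rose by 0.68 ± 0.11 (adjusted p = 0.00317) with both spermine libraries above both PBS libraries. Manf (chr9:106838312-106891979), a small ER protein secreted under stress, stood at 8.23 and 8.04 FPKM against 13.5 and 15.1 and rose by 0.74 ± 0.12 (adjusted p = 0.00332). Hyou1, the nucleotide exchange partner of Hspa5, stood at 14.1 and 15.7 FPKM against 20.7 and 22.3 and rose by 0.50, a call lost after TPM rescaling (0.18). The co-chaperones Dnajb11 (0.32) and Dnajc3 (0.28), which feed clients to Hspa5, rose by less, and both stood at or just below 0 after TPM rescaling (-0.02 and -0.05). Sdf2l1, a companion of Dnajb11, stood at 17.5 and 25.0 FPKM against 21.5 and 26.6, with overlapping groups and no call (0.19, adjusted p = 0.537).

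All 6 lectin chaperones and isomerases that rose did so by 0.32 to 0.59. Calr (chr8:84841850-84846934), which holds newly made glycoproteins until they fold, stood at 137 and 138 FPKM against 212 and 199 with spermine and rose by 0.57 ± 0.07 (adjusted p = 0.000833), a call lost after quantile normalization (0.20). Pdia6, an isomerase that also binds IRE1, stood at 24.6 and 24.9 FPKM against 36.9 and 38.5 and rose by 0.59 ± 0.06 (adjusted p = 0.000463), under all 16 alternatives too. P4hb, the classical disulfide isomerase, stood at 144 in both PBS libraries and at 191 and 198 with spermine, a rise of 0.43 ± 0.06 (adjusted p = 0.00117) that shrank to 0.09 after TPM rescaling and 0.07 after quantile normalization. Pdia3 (0.50), the isomerase that works with calreticulin and calnexin, and the membrane lectin Canx (0.47) also rose on the deposited scale, and both calls were lost under either other scaling. Pdia4 rose by 0.32 and stood at -0.01 after TPM rescaling. Creld2, an isomerase-like stress target, stood at 10.5 and 11.0 FPKM against 12.0 and 15.3, which did not overlap but did not pass (0.31, adjusted p = 0.0584).

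Of the degradation genes, Herpud1 (chr8:94386438-94395377), the scaffold of the ubiquitin ligase complex whose promoter carries both a CARE and an ERSE-II match, stood at 5.65 and 5.98 FPKM against 9.45 and 8.81 with spermine. It rose by 0.57 ± 0.10 (adjusted p = 0.00411), a call lost after TPM rescaling (0.29). The rhomboid-like channel proteins Derl1 (0.34) and Derl2 (0.35) and the mannose-trimming factor Edem2 (0.30) rose on the deposited scale. After TPM rescaling none of these 3 passed, with Derl1 at 0.01, Derl2 at 0.04 and Edem2 at -0.04. The ubiquitin ligase Syvn1 stood at 11.3 and 11.9 FPKM against 14.2 and 15.1, a change of 0.31 that missed the threshold (adjusted p = 0.0845). Edem1, which pulls misfolded glycoproteins out of the folding cycle, stood at 49.0 in both PBS libraries and at 55.7 and 50.3 with spermine (0.11, adjusted p = 0.279). Sel1l, the adaptor of Syvn1, stood at -0.19 (adjusted p = 0.0566) and fell after TPM rescaling (-0.54) and quantile normalization (-0.41).

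Among the sensors and factors, Xbp1 (chr11:5520659-5525893), the factor downstream of IRE1, stood at 44.8 and 43.0 FPKM against 74.9 and 74.4 with spermine. The groups lay well apart and the rise of 0.75 ± 0.06 (adjusted p = 0.000193) was called under all 16 alternatives, between 0.42 and 0.78. Gene-level FPKM does not separate spliced from unspliced Xbp1 message. Ern1, which encodes IRE1, stood at 11.4 in both PBS libraries and at 15.7 and 14.1 with spermine and rose by 0.36 ± 0.08 (adjusted p = 0.013), a call lost under both other scalings. Atf6 (chr1:170704674-170867771) moved the other way, from 14.9 and 14.4 to 12.6 and 11.5 FPKM. It fell by 0.26 on the log2 scale (± 0.08, adjusted p = 0.0365), by 0.61 after TPM rescaling and by 0.46 after quantile normalization. Atf6b (0.20, adjusted p = 0.343) and Eif2ak3 (-0.14, adjusted p = 0.293) did not pass, Eif2ak3 with 5.14 and 5.66 FPKM against 4.58 and 5.03 and called as a fall after TPM rescaling.

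Of the channel genes 2 of 7 rose. The pore subunit Sec61a1 stood at 20.6 and 21.5 FPKM against 24.4 and 24.3 with spermine, a rise of 0.20 (adjusted p = 0.049) whose sign turned on the TPM scale (-0.13). Ssr3, of the translocon-associated complex, rose by 0.39 on the deposited scale and was not called under either other scaling. Sec61b stood at 19.5 and 18.6 FPKM against 22.5 and 21.2 (0.19, adjusted p = 0.0535). The other 4 (Sec61g, Ssr1, Ssr2 and Ssr4) lay between -0.05 and 0.52 with no call. Across the 34 genes, 6 rises held under all 16 alternatives, those of Dnajb9, Hspa5, Xbp1, Manf, Hsp90b1 and Pdia6. Leaving out PBS 0 h replicate 2, PBS 0 h replicate 1 or spermine 0 h replicate 1 left 12, 13 or 14 rises in place of 21. Pdia3, Canx, Ssr3, Pdia4, Sec61a1 and Ern1 lost their calls in each of those 3 cases, and the fall of Atf6 was not called without any 1 library of PBS 0 h, spermine 0 h or spermine 3 h (log2 changes -0.32 to -0.20). Dnajc3, Edem2, Derl1 and Derl2 lost theirs without at least 1 library of the 0 h groups, and Edem2, Canx and Sec61a1 also without either spermine 3 h library, which enter only the estimate of spread.

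**Figure D4:**
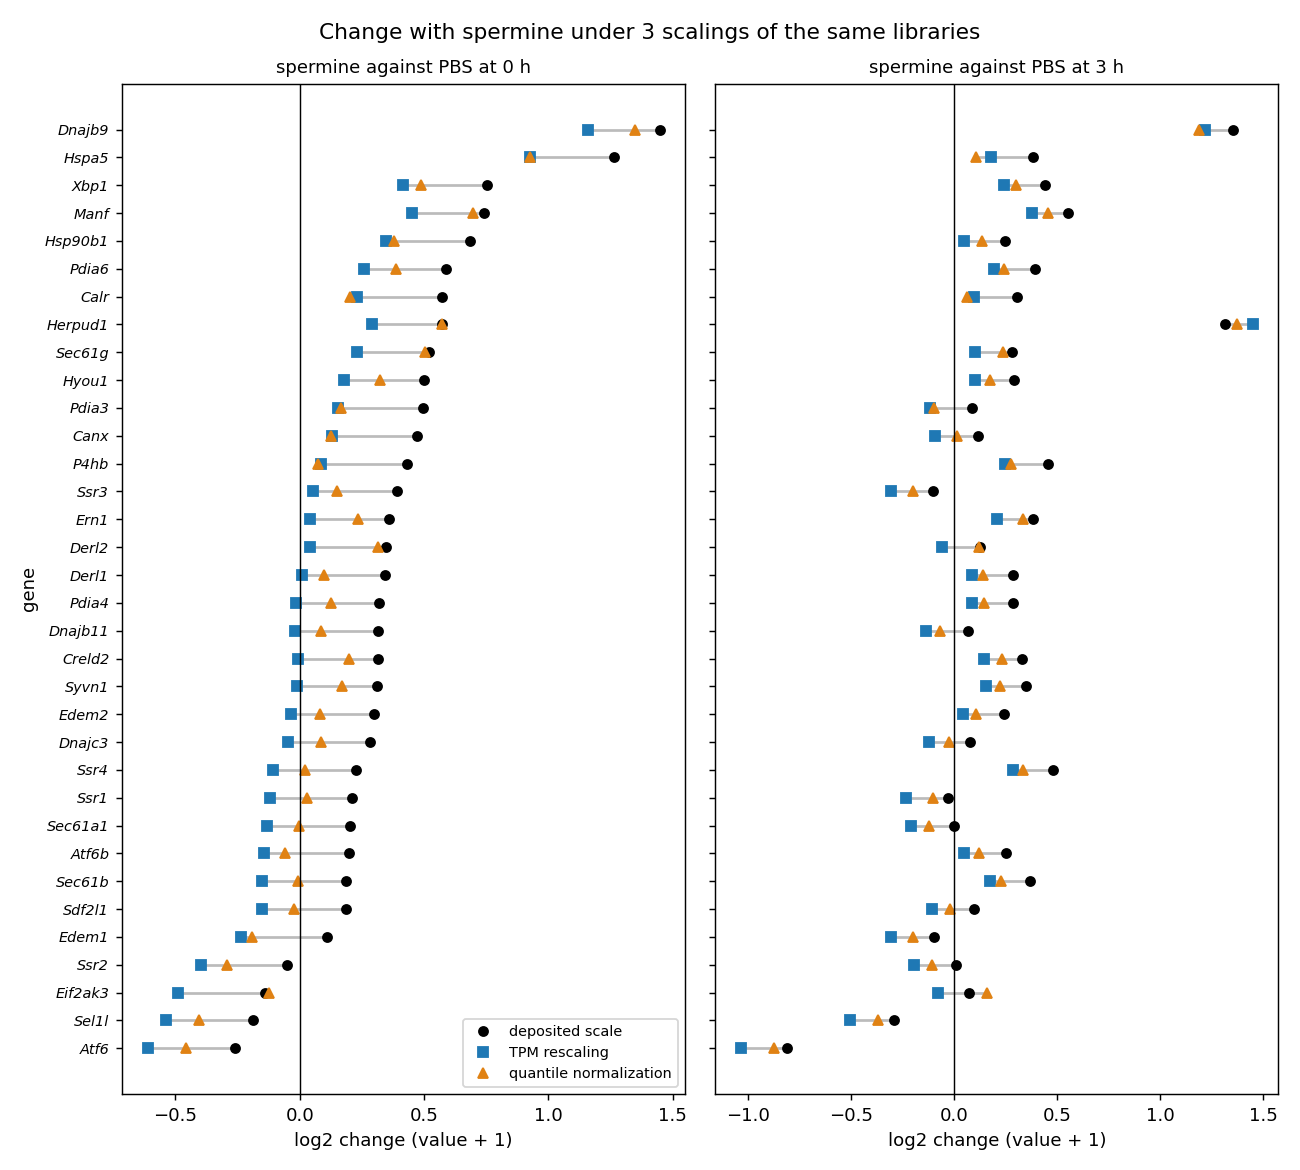
Log2 change with spermine at 0 h (left) and at 3 h (right) for the 34 genes (rows, sorted by the change at 0 h) on the deposited scale (black circles), after TPM rescaling (blue squares) and after quantile normalization (orange triangles). Dnajb9 stays at 1.16 or higher at 0 h on all 3 scales, and Atf6 stays below 0 at both times.

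After 3 h of IFN-β spermine was again compared with PBS. Dnajb9 and Herpud1 were the genes furthest above PBS, Xbp1, Manf and P4hb stayed higher, and Atf6 was lower. In all 12 of 34 genes rose and 2 fell, where 19.9% of all genes rose and 20.6% fell (40.5% together), and the median of the 34 was 0.27 against -0.00 for all genes. Genes of high level again had higher medians, 0.10 over all genes at 10 to 30 FPKM, 0.19 at 30 to 100 and 0.28 at 100 to 300. The part of level in these counts was not tested. After TPM rescaling 6 rose and 4 fell (11.7% and 32.2% of all genes), and after quantile normalization 8 rose and 2 fell (17.0% and 20.1%). Of the lumenal chaperones 4 of 8 rose, of the lectin chaperones and isomerases 3 of 7, of the degradation genes 2 of 7 with 1 fall, of the sensors 2 of 5 with 1 fall, and of the channel genes 1 of 7.

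Dnajb9 stood at 8.80 and 7.43 FPKM at PBS 3 h and at 21.6 and 22.9 at spermine 3 h, with no overlap and a rise of 1.35 ± 0.10 (adjusted p = 0.000103). Herpud1 stood at 1.14 and 1.22 FPKM against 3.98 and 4.88 and rose by 1.31 ± 0.10 (adjusted p = 0.000139), the level in spermine lying below that of PBS at 0 h. Atf6 stood at 34.3 and 30.7 FPKM against 18.2 and 17.9, a fall of 0.81 on the log2 scale (± 0.08, adjusted p = 0.000376) that lay between -1.04 and -0.73 over the 16 alternatives. Xbp1 stood at 49.2 and 48.1 FPKM against 68.7 and 64.1 and rose by 0.44 ± 0.06 (adjusted p = 0.00187). P4hb stood at 139 and 137 against 189 in both spermine libraries and rose by 0.45 ± 0.06 (adjusted p = 0.000972). All 5, with Pdia6 (0.39), kept their calls under every one of the 16 alternatives.

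Hspa5 stood at 240 and 222 FPKM at PBS 3 h and at 301 in both spermine 3 h libraries. Its rise of 0.38 ± 0.07 (adjusted p = 0.00422) was not called after TPM rescaling (0.18) or quantile normalization (0.11). Calr stood at 196 and 182 FPKM against 228 and 239 and rose by 0.30 on the deposited scale, a call likewise lost under both scalings. Manf stood at 9.07 and 9.75 FPKM against 16.2 and 12.5 and rose by 0.55 ± 0.12 (adjusted p = 0.0116). Sec61b stood at 18.9 and 19.3 FPKM against 24.9 in both spermine libraries and rose by 0.37 on the deposited scale (adjusted p = 0.00429). Ern1 (0.38), Hyou1 (0.29) and Derl1 (0.29) also rose there, and none of these 4 was called after TPM rescaling. Sel1l stood at 21.6 and 20.9 FPKM against 16.8 and 17.5 and fell by 0.29 on the log2 scale (adjusted p = 0.0119). Hsp90b1, at 62.0 and 52.4 FPKM against 67.8 and 68.0, did not pass (0.25, adjusted p = 0.117), and neither did Canx (0.11), Pdia3 (0.09), Syvn1 (0.35), Creld2 (0.33), Sdf2l1 (0.09), Edem1 (-0.10) or Sec61a1 (-0.00). Sdf2l1 stood at 23.9 and 34.7 FPKM against 32.2 and 29.6, so that the spermine libraries lay within the range of the PBS libraries. Leaving out spermine 3 h replicate 2 left 8 rises, having ended those of Calr, Derl1, Hyou1 and Ern1 (log2 changes 0.21 to 0.33). Manf and Sel1l lost their calls with replicate 1 of either 3 h group left out, Calr also without PBS 3 h replicate 2, Hyou1 also without either PBS 3 h library, and Derl1 without any of 6 libraries.

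In the pair of spermine comparisons, which share no library, 11 genes rose at both times, 10 at 0 h without a call at 3 h, and Sec61b at 3 h without a call at 0 h. Of all genes tested 13.3% rose at both times, 7.99% at 0 h without a call at 3 h, and 6.01% at 3 h without a call at 0 h. Whether a gene's response to spermine differed between the times was tested by the difference of the IFN-β responses, which is the same contrast, and is given further on.

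Over the 3 h of IFN-β in PBS, Hspa5 and Atf6 rose and Herpud1, Eif2ak3, Ern1 and Dnajb9 fell. Of the 34 genes 10 rose and 5 fell, where 24.6% of all genes rose and 25.0% fell (49.6% together), so the count of rises was close to the share of all genes. The median was 0.10 against -0.02. Over all genes it was 0.04 at 10 to 30 FPKM, 0.17 at 30 to 100 and 0.19 at 100 to 300. The balance turned with the scale, to 2 rises and 21 falls after TPM rescaling (14.8% and 55.3% of all genes) and 3 rises and 19 falls after quantile normalization (20.4% and 35.4%). Only the calls of Hspa5 and Atf6 among the 10 rises were kept under both scalings, while all 5 falls were. Both scalings lowered the median of the 34 genes, to -0.36 with TPM rescaling and -0.25 with quantile normalization. Falls are kept more easily than rises under such a shift, so this contrast does not rank them by reliability.

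Hspa5 stood at 78.8 and 77.8 FPKM at PBS 0 h and at 240 and 222 at PBS 3 h, a rise of 1.55 ± 0.07 (adjusted p = 2.47e-06) that lay between 0.91 and 1.60 over the alternatives. Atf6 stood at 14.9 and 14.4 FPKM and then at 34.3 and 30.7, a rise of 1.10 ± 0.08 (adjusted p = 3.44e-05), between 0.66 and 1.17 over the alternatives. Syvn1 (chr19:6046576-6053712) stood at 11.3 and 11.9 FPKM and then at 17.4 and 23.0, a rise of 0.74 ± 0.12 (adjusted p = 0.00225) that missed the threshold after TPM rescaling (0.31). These 3 genes encode the chaperone, a sensor and the main ubiquitin ligase of the ER. Ssr3 went from 37.4 and 36.4 to 56.2 and 48.4 FPKM (0.49). It and Calr (0.45), Pdia3 (0.44), Dnajb11 (0.41), Pdia4 (0.36), Sec61a1 (0.24) and Pdia6 (0.19) made up the other rises on the deposited scale. After TPM rescaling the 6 of them other than Ssr3 stood below 0 (Calr at -0.02, Pdia3 -0.03, Dnajb11 -0.05, Pdia4 -0.10, Sec61a1 -0.22 and Pdia6 -0.28), and none of the 7 was called as a rise. Leaving out either PBS 0 h library left 6 rises in place of 10, ending those of Pdia3, Pdia4, Pdia6 and Sec61a1, and the fall of Derl2. Pdia3 and Pdia4 lost theirs also without PBS 3 h replicate 1, Sec61a1 and Derl2 also without PBS 3 h replicate 2, and Pdia6 without any of 6 libraries.

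Herpud1 stood at 5.65 and 5.98 FPKM at PBS 0 h and at 1.14 and 1.22 at PBS 3 h. This was the largest fall, by 1.65 on the log2 scale of FPKM + 1 (± 0.10, adjusted p = 1.42e-05), which understates the fall of a gene this low. Eif2ak3 (chr6:70844515-70905245), which encodes the sensor PERK, went from 5.14 and 5.66 to 1.45 and 1.79 FPKM and fell by 1.29 (± 0.10, adjusted p = 4.58e-05). Ern1 (chr11:106394650-106487852) went from 11.4 in both libraries to 7.85 and 7.10 FPKM and fell by 0.55 (± 0.08, adjusted p = 0.00143). The sensor messages thus moved in different directions, with Atf6 up, Ern1 and Eif2ak3 down and Atf6b not called (-0.11, adjusted p = 0.595). Dnajb9 went from 12.0 and 11.0 to 8.80 and 7.43 FPKM and fell by 0.46 (± 0.10, adjusted p = 0.00649), and Derl2 went from 7.53 and 7.28 to 6.31 and 5.88 FPKM and fell by 0.25. Xbp1, at 44.8 and 43.0 and then 49.2 and 48.1 FPKM, did not pass on the deposited scale (0.14, adjusted p = 0.0986) and stood at -0.33 and -0.39 after TPM rescaling and quantile normalization. Hsp90b1 (0.22), Manf (0.19), Hyou1 (0.14), Canx (0.08), Creld2 (0.07), Edem1 (0.01), Sdf2l1 (0.44) and Sec61b (0.00) did not pass either.

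With spermine, 4 of the 34 genes rose and 6 fell over the 3 h of IFN-β, where 19.7% of all genes rose and 22.1% fell (41.7% together). The median was -0.03 against -0.01. TPM rescaling gave 3 rises and 19 falls (12.0% and 44.0% of all genes), and quantile normalization 2 rises and 21 falls (15.1% and 29.9%). Hspa5 stood at 196 and 183 FPKM at spermine 0 h and at 301 in both spermine 3 h libraries, a rise of 0.67 ± 0.07 (adjusted p = 0.00028) that was not called after quantile normalization (0.09). Syvn1 stood at 14.2 and 15.1 and then at 26.4 and 25.1 FPKM and rose by 0.77 ± 0.12 (adjusted p = 0.00261). Atf6 stood at 12.6 and 11.5 and then at 18.2 and 17.9 FPKM and rose by 0.54 ± 0.08 (adjusted p = 0.00169), and Syvn1 and Atf6 kept their calls under all 16 alternatives. Pdia4 (0.33) was the fourth, lost under 10 of the 16 alternatives and at -5.1e-05 after TPM rescaling.

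The falls with spermine were those of Eif2ak3, Herpud1, Dnajb9, Ern1, Derl2 and Sel1l. Eif2ak3 went from 4.58 and 5.03 to 1.73 and 1.76 FPKM and fell by 1.08 on the log2 scale (± 0.10, adjusted p = 0.000175). Herpud1 went from 9.45 and 8.81 to 3.98 and 4.88 FPKM and fell by 0.90 (± 0.10, adjusted p = 0.000458). Dnajb9 went from 34.4 and 31.7 to 21.6 and 22.9 FPKM and fell by 0.55 (± 0.10, adjusted p = 0.00387), still above every PBS library. Ern1 went from 15.7 and 14.1 to 9.66 and 10.4 FPKM and fell by 0.53, Derl2 from 9.71 and 9.68 to 7.07 and 6.41 with a fall of 0.47, and these 5 falls held under all 16 alternatives. Sel1l fell by 0.20 (adjusted p = 0.0467), a call that ended without any 1 of the 8 libraries (log2 changes -0.25 to -0.15). Pdia4 lost its call without either PBS 0 h library, either spermine 0 h library or spermine 3 h replicate 2 (0.22 to 0.38).

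**Figure D5:**
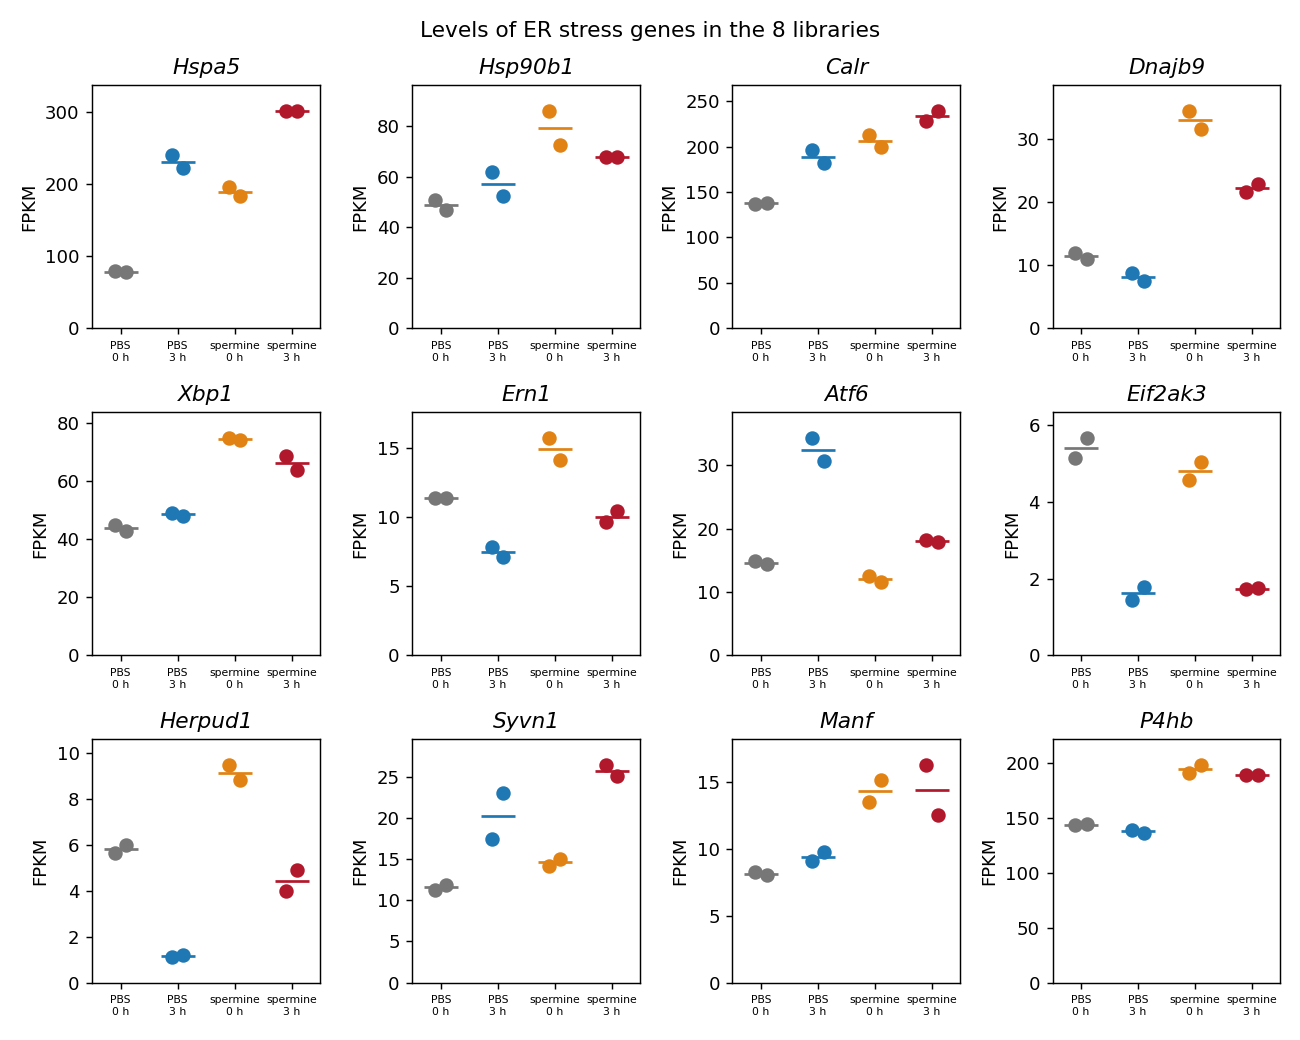
FPKM of 12 of the genes in the 8 libraries (points) with group means (lines), on linear axes from 0. Hspa5 is lowest in the PBS 0 h libraries and highest in the spermine 3 h libraries, Dnajb9 is higher in every spermine library than in any PBS library, and Eif2ak3 and Herpud1 are lower at 3 h than at 0 h within each treatment.

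Whether the response to IFN-β differed with spermine was tested directly. The difference of the 2 responses (spermine minus PBS) passed for 3 of the 34 genes, rising for 1 and falling for 2, where 5.82% of all genes passed upward and 7.75% downward (13.6% together). Another 6 had an unadjusted p under 0.05 (9 of 34 in all, where 29.6% of all genes did), so these counts were no higher than those of all genes. Of the 34 differences 24 were below 0, as were 52.5% of those of all genes (median -0.19 against -0.02). Hspa5 rose by 1.55 in PBS and 0.67 with spermine, a difference of -0.88 ± 0.09 (adjusted p = 0.00333), and this call held under all 15 alternatives that give a difference (-0.94 to -0.75). It started from 78.3 ± 0.717 FPKM in PBS and 190 ± 8.98 with spermine, and ended at 231 ± 12.6 and 301 ± 0.313. Atf6 rose by 1.10 in PBS and 0.54 with spermine (difference -0.55 ± 0.11, adjusted p = 0.0225). Herpud1 fell by 1.65 in PBS and by 0.90 with spermine (difference 0.74 ± 0.14, adjusted p = 0.0187). The Atf6 call was lost under both scalings and the Herpud1 call under neither. Both ended without PBS 0 h replicate 1, PBS 0 h replicate 2, PBS 3 h replicate 1 or spermine 3 h replicate 2, Herpud1 also without spermine 0 h replicate 2, and Atf6 also without spermine 0 h replicate 1 or spermine 3 h replicate 1 (differences of 0.62 to 0.78 for Herpud1 and -0.58 to -0.48 for Atf6). For Ssr3 (-0.49, adjusted p = 0.0537) and Xbp1 (-0.31, adjusted p = 0.0644) the difference missed the threshold. For Dnajb9 (-0.09, adjusted p = 0.69), Ern1 (0.02, adjusted p = 0.926), Eif2ak3 (0.21, adjusted p = 0.357) and Syvn1 (0.04, adjusted p = 0.912) no difference was detectable with 2 libraries a group, which does not show that the responses were alike.

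The genes can be set beside the promoter elements printed above. Of the 11 genes with an ERSE or ERSE-II in the window, 10 were tested, and 8 of these rose with spermine at 0 h (median 0.52, range 0.28 to 1.26), Syvn1 and Creld2 being those without a call, where 22.0% of all genes rose. Of the 18 tested genes whose window held neither, 9 rose (median 0.31, range -0.19 to 1.45), among them Dnajb9 and Xbp1. The bases before the deposited start of Dnajb9 were not in its window. At 3 h 4 of the 10 rose with spermine, and 5 of the 18 rose and 1 fell (medians 0.32 and 0.24), where 19.9% of all genes rose and 20.6% fell. These counts depended on the scale, with 4 rises of the 10 and 2 of the 18 (3 falls) at 0 h after TPM rescaling, and 2 and 3 (3 falls) at 3 h. On that scale 10.4% of all genes rose and 41.5% fell at 0 h, and 11.7% rose and 32.2% fell at 3 h. With IFN-β in PBS 5 of the 10 rose and 1 fell on the deposited scale, and 3 of the 18 rose and 4 fell, counts that turn with the scale as above. Of all genes 24.6% rose and 25.0% fell in that comparison on the deposited scale. Herpud1 and Hspa5, which both carry an element, moved in opposite directions with IFN-β in PBS. The members were chosen as known targets and these counts describe them only.

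The other genes of the pathway were read from 6 lists. Their counts stand against all genes, of which 22.0% rose and 19.2% fell with spermine at 0 h, 19.9% and 20.6% with spermine at 3 h, 24.6% and 25.0% with IFN-β in PBS, and 19.7% and 22.1% with IFN-β in spermine. After TPM rescaling the shares of all genes were 10.4% and 41.5%, 11.7% and 32.2%, 14.8% and 55.3%, and 12.0% and 44.0%. The PERK and ATF4 branch stood furthest from all genes, with 10 of 14 tested genes up and 0 down at 0 h and the same counts at 3 h of spermine against PBS (medians 1.09 and 1.38). After TPM rescaling 9 rose and 1 fell at each time. Atf4, the factor translated when PERK or a related kinase is active, went from 52.5 ± 4.97 to 167 ± 0.157 FPKM at 0 h (1.65 ± 0.07, adjusted p = 1.94e-05) and stood 1.77 above PBS at 3 h. Ppp1r15a, which restarts translation, went from 5.99 ± 0.675 to 72.3 ± 8.60 FPKM (3.39 ± 0.11, adjusted p = 7.08e-06), the largest change named here at 0 h. Ddit3, which encodes the stress factor CHOP, rose by 1.10 at 0 h and 1.79 at 3 h, the pseudokinase Trib3 by 1.44 and 1.86, and the mTOR inhibitor Ddit4 by 2.45 and 3.69. Atf3, a factor of the same branch, rose by 0.81 and 1.36. Eif2ak3 itself was not called in either spermine comparison on the deposited scale.

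With IFN-β in PBS 5 of the 14 genes of this branch rose and 4 fell, and with spermine 4 rose and 1 fell, while TPM rescaling gave 2 rises and 6 falls and 2 rises and 4 falls. Ppp1r15b, the constitutive counterpart of Ppp1r15a, went from 14.8 ± 0.0833 to 57.1 ± 4.54 FPKM in PBS (1.88 ± 0.07, adjusted p = 1.46e-06) and rose by 1.53 with spermine. Ddit3 fell by 0.49 in PBS (adjusted p = 0.00462) and was not called with spermine (0.21), with a difference between the responses of 0.69 ± 0.13 (adjusted p = 0.02). Ddit4 fell by 1.03 in PBS and was not called with spermine (0.21, difference 1.24 ± 0.22, adjusted p = 0.0151). Atf3 rose by 0.55 in PBS and by 1.09 with spermine (difference 0.55 ± 0.10, adjusted p = 0.0181), although its change in PBS stood at -0.13 after quantile normalization.

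Of 17 other degradation genes 10 rose and 1 fell with spermine at 0 h (22.0% and 19.2% of all genes), and 6 rose and 2 fell at 3 h (19.9% and 20.6%). After TPM rescaling 5 rose at each time, with 2 falls at 0 h and 3 at 3 h. The ER ubiquitin-conjugating enzyme Ube2j1 went from 28.5 ± 1.2 to 76.2 ± 6.98 FPKM at 0 h (1.38 ± 0.11, adjusted p = 0.000169) and stood 1.26 above PBS at 3 h. With IFN-β 4 rose and 2 fell in PBS and 2 rose and 5 fell with spermine, counts that became 1 and 15 and 1 and 13 after TPM rescaling. The largest change was that of the ER ubiquitin ligase Rnf139, from 5.30 ± 0.948 to 18.5 ± 2.09 FPKM in PBS (1.63 ± 0.13, adjusted p = 6.97e-05). It rose by 1.27 with spermine.

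Of 19 tested other folding enzymes 6 rose and 2 fell at 0 h and 2 rose and 1 fell at 3 h with spermine. After TPM rescaling this became 1 and 8, and 2 and 2. Ero1l, the oxidase that recharges the isomerases, went from 7.33 ± 0.283 to 19.3 ± 2.35 FPKM at 0 h (1.28 ± 0.09, adjusted p = 0.000106), rose by 0.65 at 3 h, and fell by 0.79 with IFN-β in spermine, its difference between the responses being -0.63 ± 0.13 (adjusted p = 0.0246). Erp29, a chaperone without isomerase activity, fell by 0.69 at 0 h and rose by 0.40 with IFN-β in spermine, a difference of 0.69 ± 0.15 (adjusted p = 0.0301). The isomerase-like Txndc11 rose by 0.42 and 0.65 with spermine. With IFN-β 2 rose and 0 fell in PBS, Prdx4, the ER peroxiredoxin, leading with 0.48, and 2 rose and 2 fell with spermine, where TPM rescaling gave 0 rises and 14 and 10 falls.

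Of 17 tested ER stress factors and traffic genes 7 rose and 2 fell with spermine at 0 h and 8 rose and 3 fell at 3 h, against 1 and 7, and 2 and 5, after TPM rescaling. Sec24d, a coat subunit for export from the ER, went from 11.3 ± 0.0852 to 34.8 ± 0.644 FPKM at 0 h (1.54 ± 0.09, adjusted p = 4.14e-05) and stood 1.13 above PBS at 3 h. With IFN-β 5 rose and 5 fell in each treatment, counts close to the shares of all genes (24.6% and 25.0% in PBS, 19.7% and 22.1% with spermine), the ER membrane protein Tmbim6, an inhibitor of cell death, leading with 0.96 in PBS and 0.93 with spermine, and TPM rescaling gave 3 and 12, and 2 and 10. The oligosaccharyltransferase, which attaches sugars to proteins entering the ER, rose in 5 of 11 genes at 0 h and 2 at 3 h with spermine (22.0% and 19.9% of all genes). After TPM rescaling 0 rose and 2 fell at each time. With IFN-β 3 rose in PBS, and 1 rose and 2 fell with spermine, against 0 rises and 8 and 6 falls after TPM rescaling. Of 15 tested genes of signal peptide recognition and cleavage 4 rose at 0 h and 2 at 3 h with spermine, near or below the shares of all genes, and after TPM rescaling 0 rose and 2 fell at each time. With IFN-β 1 rose and 2 fell in PBS and 2 rose and 4 fell with spermine, against 0 rises and 13 falls in each after TPM rescaling.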

How the data were processed

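Polyadenylated RNA of bone marrow derived macrophages was sequenced in 8 libraries, 2 for each of 4 groups. The deposited values are FPKM per gene, made by the authors. Per the submitters' processing notes, CASAVA 1.8, fastp, HISAT2 2.0.5, featureCounts 1.5.0-p3 and DESeq2 1.20.0 were used with GRCm38 (mm10), and the sources used here give neither their roles nor the strand setting or the treatment of multiply mapped reads. The labels name PBS where the series text names DMSO, and the extraction protocol speaks of blood. FPKM times gene length came out as whole multiples of 1 step in every library for 100% of values (tolerance 0.001 of a read), which gave back 15723437 to 17744844 reads per library.

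From the FPKM, log2(FPKM + 1) was fitted with limma 3.58.1 in R 4.3.3 (4 group means, trended prior, 4 residual degrees of freedom) over the 11421 genes at 1 FPKM or more in at least 2 libraries, with Benjamini-Hochberg adjustment over these and a threshold of 0.05. A fold change on this scale understates the change of low genes. The contrasts were IFN-β in PBS, IFN-β with spermine, their difference, and spermine against PBS at each time (0 h, 3 h). Those sharing libraries are not independent of each other, and all share 1 estimate of spread for each gene. No agreement between them is counted as a result. The scripts were tested on simulated data. All 35 genes are accounted for. Levels in libraries were printed for a set list of sensors, factors and chaperones and for up to 5 of the largest rises and falls past the threshold, and of each pathway list up to 4 genes of the largest change, with Atf4, Ddit3, Ppp1r15a and Trib3 always named. Genes of the pathway lists that passed in the difference of the responses were also all named. Genes and lists were chosen with earlier results of these data known. For Ddit3, whose symbol occurs in more than 1 row, the one of most reads was taken. Positions are those of the deposited table, which matched GENCODE M21 for all 35 genes. Promoter windows came from RefSeq (GRCm38.p6). The alternatives were TPM rescaling, quantile normalization, a pseudocount of 0.1, no filter on low values, no trend, a fit on only the 2 groups compared, limma voom on the rebuilt reads, a block for replicate number, and leaving out each of the 8 libraries.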

Additional observations from a re-analysis of the deposited data

Results flagged for a closer look

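For 8 of the genes named here the response to IFN-β differed between spermine and PBS by the test of the difference itself (limma, adjusted p under 0.05). They are 8 of 49 named genes, several of them named for large changes. Every gene of the pathway lists that passed this test was put among the named genes. The 8 of 49 therefore cannot be set against the 13.6% of all genes that passed. Of the 34 tested members, 3 passed. Hspa5 had a difference of -0.88 log2 units, rising in both treatments and by less with spermine (adjusted p = 0.00333, and 0.000388 to 0.0255 over 15 alternatives). Atf6 had a difference of -0.55, also rising by less with spermine (adjusted p = 0.0225, range 0.0103 to 0.095). Herpud1 had a difference of 0.74, falling by less with spermine (adjusted p = 0.0187, range 0.00826 to 0.0855). Among the genes of the PERK and ATF4 branch, Ddit3 had a difference of 0.69 (adjusted p = 0.02, range 0.01 to 0.0864), Ddit4 of 1.24 (adjusted p = 0.0151, range 0.00582 to 0.0659) and Atf3 of 0.55 (adjusted p = 0.0181, range 0.00726 to 0.0851). Ddit3 and Ddit4 fell with IFN-β in PBS and were not called with spermine, and Atf3 rose by more with spermine on the deposited scale. Of the folding enzymes, Erp29 had a difference of 0.69 (adjusted p = 0.0301, range 0.00928 to 0.118) and Ero1l of -0.63 (adjusted p = 0.0246, range 0.0169 to 0.104). Of these 8, Hspa5 alone passed under all 15 alternatives.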

How the results depend on the processing

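The scale was the choice that moved most results. After TPM rescaling 23 of the 34 genes changed with IFN-β in PBS (2 rose, 21 fell), 22 with IFN-β in spermine (19 fell), 12 with spermine at 0 h (7 rose, 5 fell), 6 rose and 4 fell with spermine at 3 h, and 1 rose and 1 fell in the difference of the responses. After quantile normalization 3 rose and 19 fell with IFN-β in PBS, 23 changed with IFN-β in spermine (2 rose, 21 fell), 12 changed with spermine at 0 h (9 rose, 3 fell), and 1 rose and 1 fell in the difference. The single fall with spermine at 0 h became 0 with no filter on low values or with only the 2 groups, and 2 with limma voom on the rebuilt reads.

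Some signs also turned under these scalings, and the cause was not tested. The shifts of the median gene given above are those of TPM rescaling. With quantile normalization the median shift over genes was -0.05 for IFN-β in PBS, smaller than many of the turns listed here. For IFN-β in PBS, TPM rescaling gave log2 changes of -0.32 for Hyou1, -0.053 Dnajb11, -0.45 Dnajc3, -0.020 Calr, -0.39 Canx, -0.027 Pdia3, -0.10 Pdia4, -0.28 Pdia6, -0.39 Creld2, -0.46 Edem1, -0.46 Edem2, -0.33 Xbp1, -0.22 Sec61a1, -0.46 Sec61b, -0.46 Ssr1, -0.34 Ssr2, -0.27 Sec24d and -0.43 Ube2j1. Quantile normalization gave -0.38 for Hsp90b1, -0.25 Dnajc3, -0.25 Calr, -0.59 Canx, -0.22 Pdia3, -0.18 Pdia6, -0.56 Edem1, -0.35 Edem2, -0.39 Xbp1, -0.085 Sec61a1, -0.30 Sec61b, -0.25 Ssr2, -0.021 Ssr3, -0.35 Ube2j1 and -0.13 Atf3. For IFN-β with spermine, quantile normalization gave -0.39 for Calr, -0.48 Pdia3 and -0.21 Sec61a1, and TPM rescaling -5.1e-05 for Pdia4 and -0.29 for Sec61a1. With spermine at 0 h, TPM rescaling gave -0.020 for Dnajb11, -0.045 Dnajc3, -0.014 Pdia4, -0.23 Edem1, -0.035 Edem2 and -0.13 Sec61a1, and quantile normalization -0.00089 for Sec61a1.

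Leaving out 1 library at a time gave 10 to 15 changed genes for IFN-β in PBS (6 to 10 rises, 4 to 5 falls), 8 to 9 for IFN-β with spermine (3 to 4 and 5 to 6), 12 to 23 for spermine at 0 h (12 to 22 and 0 to 1), 10 to 16 for spermine at 3 h (8 to 14 and 1 to 2) and 1 to 4 for the difference (0 to 1 and 1 to 3). The lone library of a group was then taken to vary like the others. The labels do not say what a shared replicate number stands for, and the deviations of same-numbered libraries correlated at 0.229, 0.246 and 0.371 among PBS 0 h, PBS 3 h and spermine 0 h but at -0.0615, -0.0890 and -0.126 with spermine 3 h. These mixed correlations do not settle whether the numbers, BM1 and BM2 in the titles, mark a shared source. As the labels do not explain them, they were left out of the main fit and entered as a block in an alternative. The replicate block gave 5 changed genes in the difference, 4 of them falls, and altered 10 calls over the comparisons. It added the falls of Ssr3 (adjusted p = 0.0298) and Xbp1 (0.0489) in the difference, of Edem1 and Ssr1 with IFN-β in spermine, and the rises of Sec61g and Ssr1 with spermine at 0 h and of Hsp90b1, Ssr4 and Syvn1 at 3 h, and ended that of Pdia4 at 0 h. With a pseudocount of 0.1 all 245 values of the 49 named genes kept their direction and their side of the threshold. With no trend 239 did, with voom 234, with TPM rescaling 164 and with quantile normalization 177. Depth limited Derl3, at 4 to 21 reads per library, which was not tested.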
